A study of Saccharomyces cerevisiae with 12 samples.

Results

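Gene expression in a gcn5 mutant of budding yeast, Saccharomyces cerevisiae, was compared with that of wild type while both strains were exposed to Congo Red. The comparison used 6 of the 12 Affymetrix arrays of the series, chosen by their titles: 3 of the mutant and 3 of wild type, each taken after 3 h in Congo Red at 30 µg/ml. Both strains have the BY4741 background, a haploid laboratory strain of mating type a with deletions in auxotrophic marker genes, and both were grown in the rich glucose medium YPD. Each culture was split during growth, with dye added to one portion and not to the other, and the 6 arrays of the undyed portions (3 per strain) served as the reference for what the strains differ in without the dye. The labels call the mutant gcn5 without giving its allele or the number of clones, and they call the samples biological.

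Gcn5 is a histone acetyltransferase. It is the catalytic subunit of SAGA and of the ADA complexes, which acetylate the tails of histone H3 in promoter nucleosomes, and SAGA is best known for its part in the transcription of inducible genes such as the phosphatase gene PHO5. Congo Red binds chitin and glucan chains and disturbs their assembly into the wall. Yeast responds to such damage through the cell wall integrity pathway, in which membrane sensors activate the GTPase Rho1, protein kinase C and a MAP kinase cascade that ends in Slt2 and its transcription factor Rlm1.

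Of 5449 genes on the arrays, 5345 were bright enough to be tested. All values below are log2 expression, so a difference of 1 is 2-fold. A gene passed when its p-value from limma, adjusted over the 5345 genes, was under 0.05. In Congo Red 586 genes passed, 11.0% of those tested, of which 244 (4.57%) were higher and 342 (6.4%) lower in the mutant. At least 2-fold apart were 124 of them (2.32%), 32 higher (0.599%) and 92 lower (1.72%). The 3 arrays of each strain did not overlap for 1551 genes (29.0%), and the median difference over all genes was -0.00. Of the 586 calls 285 (48.6%), 102 higher and 183 lower, also passed whichever single array was left out.

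Array medians lay between 8.98 and 9.05. The third mutant array in Congo Red departed most from its group, with a root mean square deviation of 0.313 over all genes, followed by its undyed counterpart at 0.293, and the other 10 arrays lay between 0.147 and 0.228. The third wild type array in Congo Red was low for mating genes and for ARG1. Without the third mutant array 473 genes passed, and without both Congo Red arrays numbered 3 there were 412. Without the first or the second wild type array in Congo Red the count fell to 350 or 375.

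The level of GCN5 (YGR252W) was a check of the strain labels. In Congo Red it was at 8.26, 8.30 and 8.20 on the wild type arrays and at 3.61, 3.02 and 3.55 on the mutant arrays. The mutant arrays were below log2 4, the level taken here as not measurable, so the fold is a bound, at least 19.0-fold less in the mutant for GCN5 (adjusted p = 1.65e-07). Among its chromosomal neighbours, NOP19, a gene of ribosome assembly, was higher by 0.50 ± 0.12 (SE; adjusted p = 0.0189), a call lost without any of 4 single Congo Red arrays (adjusted p up to 0.073, without the second wild type array). The other neighbours MGA1, PUP2, ENO1 and COQ6 did not pass. Of the background's marker genes, URA3 (2.85 to 3.40) and MET17 (3.46 to 3.85) stayed below log2 4 throughout the 12 arrays, while LEU2 ranged from 3.93 to 5.29. HIS3 read 9.24 to 10.08 on the 12 arrays. Its allele in this background is known as a partial deletion, and which part of the gene the probes read was not checked.

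**Figure D1:**
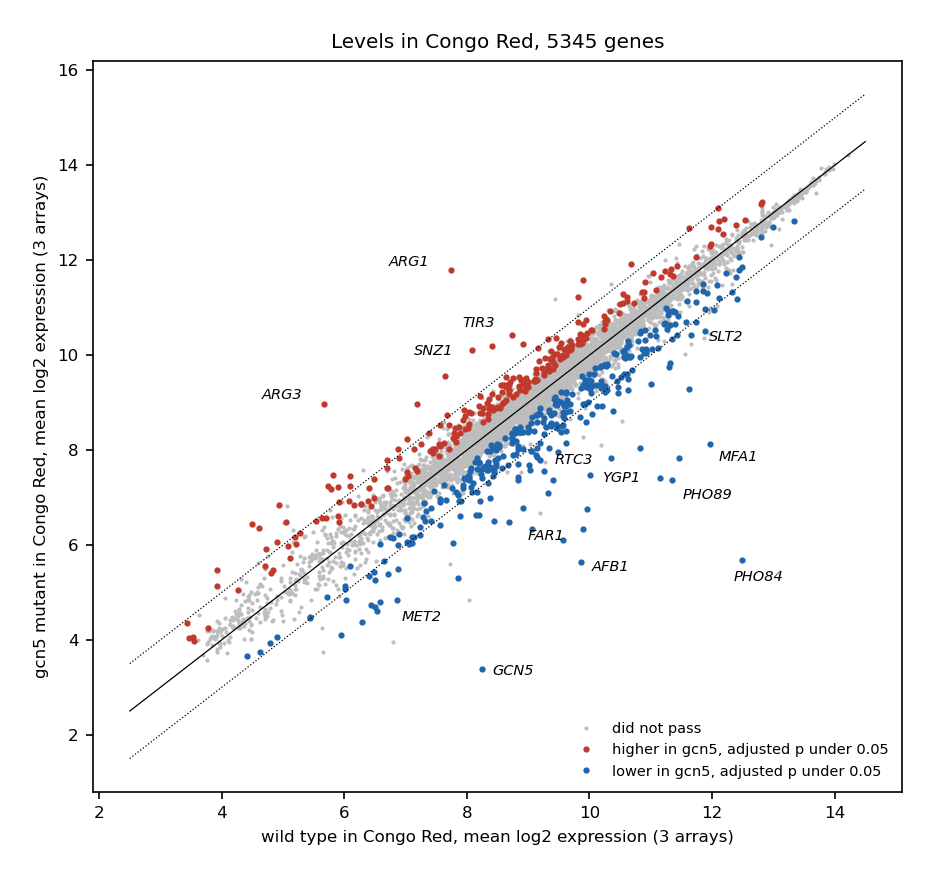
Mean log2 expression in Congo Red of 5345 genes, wild type on the horizontal and gcn5 mutant on the vertical axis (means of 3 arrays each), with the line of equality and dotted lines at 2-fold. Passing genes are red where higher (244) and blue where lower (342) in the mutant, and PHO84 and GCN5 lie farthest below the line while ARG1 and ARG3 lie farthest above it.

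The largest difference of the comparison was in the phosphate regulon, the genes that the transcription factor Pho4 activates when phosphate is scarce. The list used here also holds the regulon's signalling genes and other phosphate genes, such as PHO91 and the constitutive PHO3. Of its 26 measured members 14 were lower (6.4% of all genes) and 12 did not pass. Their median difference was -0.72. The high-affinity phosphate transporter gene PHO84 was at 11.87, 12.64 and 12.97 in wild type and at 4.58, 4.28 and 8.19 in the mutant. Every mutant array was below every wild type array, but the third mutant array stood far above the other 2. Its difference of -6.81 ± 1.19 (SE, n = 3 arrays per strain; 112-fold, adjusted p = 0.00465) was the largest of any gene that passed, and it was -8.06 without that array (adjusted p = 0.00212). In RNA from a whole culture, fewer cells with a transcript and less of it per cell cannot be told apart. PHO89, the sodium-coupled phosphate transporter gene, was at 10.66, 11.44 and 11.96 in wild type and at 7.10, 7.14 and 7.84 in the mutant, 15.9-fold lower (-3.99 ± 0.47; adjusted p = 0.000497).

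Secreted acid phosphatase genes followed the transporters. PHO11 was at 10.79, 11.28 and 12.31 in wild type and at 7.83, 7.88 and 7.82 in the mutant, 12.3-fold lower (adjusted p = 0.000399). PHO11 has a near-identical copy, PHO12, so its probe set may read both. PHO5, the main repressible enzyme of this kind, was at 9.11, 10.43 and 10.48 against 7.12, 7.69 and 7.61, 5.78-fold lower (-2.53 ± 0.48; adjusted p = 0.00731), and the constitutive PHO3 beside it was 9.31-fold lower (-3.22 ± 0.48; adjusted p = 0.0018). SPL2, which turns down the low-affinity transporters, was at 9.08, 9.26 and 10.36 in wild type and at 6.17, 6.35 and 5.81 in the mutant, 11.0-fold lower (adjusted p = 0.000497).

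The 4 subunits of the vacuolar complex that makes polyphosphate were lower as well. VTC3 differed by -2.35 ± 0.32 (adjusted p = 0.00123), VTC4 by -0.99 ± 0.21 (adjusted p = 0.0117), VTC1 by -0.90 ± 0.18 (adjusted p = 0.00832) and VTC2 by -0.85 ± 0.16 (adjusted p = 0.00602). PHM6 and the phosphatase gene PHM8 differed by -2.55 ± 0.37 (adjusted p = 0.00154) and -1.73 ± 0.15 (adjusted p = 5.82e-05). The signalling machinery of the regulon was also on the arrays. PHO81, which encodes the inhibitor of the Pho80 and Pho85 kinase, was lower by 1.77-fold (adjusted p = 0.0213) and the vacuolar transporter gene PHO91 by 1.53-fold (adjusted p = 0.0196), both calls lost without 4 single arrays, arrays 2 and 3 of wild type and 1 and 2 of the mutant in Congo Red (adjusted p up to 0.072 and 0.076). PHO4 (8.72 against 8.28), its partner PHO2 (8.59 against 8.58), the cyclin gene PHO80 (8.70 against 8.63) and the kinase gene PHO85 (9.31 against 9.54) did not pass (adjusted p from 0.159 to 0.973). In the undyed portions 14 of the 26 were also lower (4.92% of all genes), with a median of -0.88, and PHO84 differed by -6.52 ± 1.19 (adjusted p = 0.00722).

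**Figure D2:**
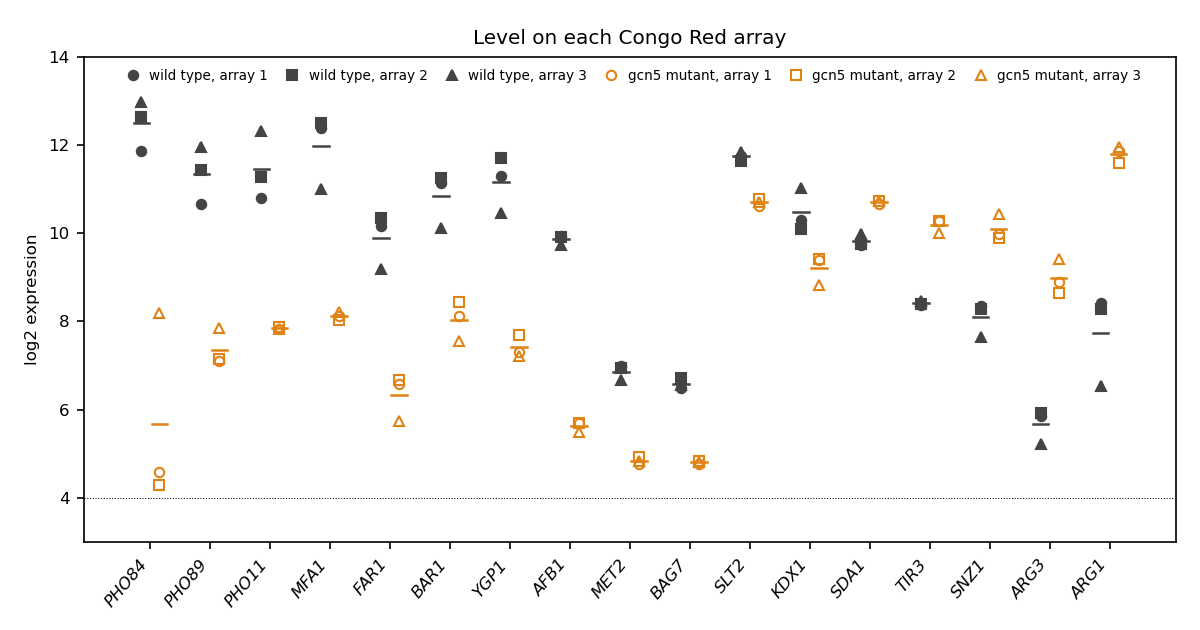
Log2 expression of 17 genes on each of the 6 Congo Red arrays, wild type filled and gcn5 mutant open, with a symbol for each array number, a bar at each group mean and a dotted line at log2 4. The third mutant array stands above the other mutant arrays for PHO84 (8.19 against 4.58 and 4.28), and the third wild type array stands below its group for MFA1, FAR1, YGP1 and ARG1.

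Genes of mating formed the next group. BY4741 is an a cell, and a cells express the pheromone a-factor, the alpha-factor receptor Ste2 and the protease Bar1 that degrades alpha-factor. Of 7 a-specific genes 3 were lower in the mutant (6.4% of all genes) and 4 did not pass. On all 7 the 3 arrays of each strain did not overlap (29.0% of all genes). MFA1, which encodes a-factor, was at 12.39, 12.50 and 11.01 in wild type and at 8.11, 8.04 and 8.22 in the mutant, a 14.3-fold difference (-3.84 ± 0.44; adjusted p = 0.000497). Its twin MFA2 kept a high level, at 12.21, 12.29 and 11.74 against 11.63, 11.61 and 9.87, and did not pass (adjusted p = 0.197). BAR1 was at 11.14, 11.25 and 10.11 against 8.12, 8.44 and 7.55, 6.95-fold lower (-2.80 ± 0.51; adjusted p = 0.00578).

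The a-factor exporter gene STE6 was 1.96-fold lower (adjusted p = 0.0284), a call lost without the first or second wild type array or the third mutant array (adjusted p up to 0.0942). The agglutinin gene AGA2 differed by -1.92 ± 0.66 (adjusted p = 0.0907), ASG7 by -2.53 ± 0.84 (adjusted p = 0.0814) and STE2 by -0.96 ± 0.30 (adjusted p = 0.0644). The third wild type array was 9.0 for AGA2 beside 11.34 and 11.25, and 7.32 for ASG7 beside 10.13 and 10.14. Without that array 6 of the 7 passed, and without the third undyed wild type array 5 did. The mean of the 7 genes ranged from 10.15 to 11.50 over the wild type arrays and from 8.57 to 9.27 over the mutant arrays. In the undyed portions 4 of the 7 were lower (4.92% of all genes), with a median of -1.9. With the replicate number as a block, which pairs the undyed strains, 7 were lower there (19.2% of all genes passed).

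Signalling and response genes of the pheromone pathway were lower too, in 9 of 27 cases (6.4% of all genes), with 18 not passing and a median of -1.0. FAR1, the cell cycle inhibitor of the pheromone response, was at 10.17, 10.35 and 9.18 in wild type and at 6.58, 6.68 and 5.73 in the mutant, 11.9-fold lower (-3.57 ± 0.49; adjusted p = 0.00117). SST2, which switches off the G protein, was at 9.61, 9.83 and 8.78 against 7.06, 7.58 and 7.44, a 4.14-fold difference (adjusted p = 0.00126). The MAP kinase genes FUS3 and KSS1 differed by -1.29 ± 0.25 (adjusted p = 0.00868) and -0.58 ± 0.10 (adjusted p = 0.00342), and the G protein alpha subunit gene GPA1 by -1.13 ± 0.20 (adjusted p = 0.00541). STE4, the beta subunit gene, did not pass (-0.45 ± 0.16; adjusted p = 0.102).

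Among the other pheromone genes that passed, single arrays decided the call. The cell fusion gene FUS1 was at 9.87, 9.59 and 7.74 against 6.07, 6.52 and 6.40 (adjusted p = 0.0165), and its call was lost without the first or second wild type array or the first mutant array (adjusted p up to 0.0691). Calls of AFR1 (-1.35; adjusted p = 0.0198), KAR4 (-1.17; adjusted p = 0.0399) and the transcription factor gene STE12 (-0.46; adjusted p = 0.0427) were lost without 3, 7 and 8 single arrays, with adjusted p up to 0.0763, 0.14 and 0.143, each highest without the first or second wild type array in Congo Red. The count of lower genes was 16 without the third wild type array and 5 without the first or the second. Without dye 8 of the 27 were lower (4.92% of all genes), with a median of -0.79.

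Among the markers of other cell types, the alpha-factor gene MF(ALPHA)1 stayed below log2 4 on all 12 arrays, and STE3, the receptor gene of alpha cells, was between 4.81 and 5.53 in Congo Red. SAG1 read 8.0 to 8.44 in Congo Red, with no difference that passed (adjusted p = 0.604). AFB1, known as the gene of a secreted protein of alpha cells that blocks a-factor, was at 9.94, 9.92 and 9.72 in wild type and at 5.70, 5.70 and 5.49 in the mutant. At 18.8-fold (-4.23 ± 0.21; adjusted p = 1e-06) the difference was many times the spread within either strain. Whether its probe set reads another transcript in these a cells was not checked. Of 12 tested markers of sporulating diploids, the meiotic transcription factor gene NDT80 was higher (0.79 ± 0.15; adjusted p = 0.00653) and SPS4 lower (-1.39 ± 0.37; adjusted p = 0.0357, lost without 6 single arrays, up to 0.13 without the first wild type array). The mean over the 13 diploid markers on the arrays was 5.45 to 5.84 in wild type and 5.54 to 5.6 in the mutant. What part cells of other types had in the mating differences was not tested.

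The comparison was made in cells under wall stress, and the target genes of the cell wall integrity pathway were a list of their own. Of 22 measured members 13 were lower in the mutant (6.4% of all genes) and 9 did not pass. The median was -0.63, and the strains' arrays did not overlap for 18 of them (29.0% of all genes). BAG7, a GTPase-activating protein for Rho1, was at 6.49, 6.71 and 6.55 in wild type and at 4.76, 4.84 and 4.81 in the mutant, 3.44-fold lower (-1.78 ± 0.12; adjusted p = 7.39e-06). YPL088W, which encodes a putative aryl alcohol dehydrogenase, was at 10.82, 10.97 and 11.24 against 9.46, 9.40 and 9.32, 3.07-fold lower (-1.62 ± 0.11; adjusted p = 7.39e-06). For both genes the gap between strains was many times the spread within them.

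The kinases of the pathway are themselves its targets. SLT2 was at 11.74, 11.63 and 11.85 in wild type and at 10.62, 10.77 and 10.71 in the mutant, a 2.05-fold difference (-1.04 ± 0.15; adjusted p = 0.00132). Its paralog KDX1 was at 10.30, 10.10 and 11.02 against 9.39, 9.42 and 8.83, 2.39-fold lower (adjusted p = 0.00531). Of the genes that build or process the wall, the mannosyltransferase gene KTR2 was lower by 2.43-fold (10.04, 9.94 and 10.15 against 8.74, 8.72 and 8.82; adjusted p = 6.57e-05) and the aspartic protease gene YPS3 by 2.45-fold (adjusted p = 0.00566). PRM5 (-0.88 ± 0.19; adjusted p = 0.0131), SRL3 (-0.85 ± 0.17; adjusted p = 0.0101) and GFA1 (-0.60 ± 0.13; adjusted p = 0.0142) also passed.

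Other members differed little or varied between arrays. GSC2, the stress-inducible glucan synthase subunit, was at 11.77, 12.02 and 12.10 in wild type and at 9.77, 9.99 and 11.58 in the mutant. It did not pass (-1.51 ± 0.44; adjusted p = 0.0514), but without the third mutant array it was -2.08 (adjusted p = 0.00445). For the wall protein gene PIR3 that array was the low one, 8.82 beside 11.32 and 10.95, against 11.73 to 12.02 in wild type (adjusted p = 0.103). The abundant wall protein genes HSP150 (13.05 against 12.97), SED1 (13.50 against 13.46) and PIR1 (12.40 against 12.24) and the transglycosylase gene CRH1 (12.27 against 12.33) did not pass and their arrays overlapped. Calls of CHS3, CRG1, PST1 and CIS3 rested on single arrays, with adjusted p up to 0.0728 (without the second wild type array), 0.129 and 0.141 (without the third wild type array) and 0.107 (without the third mutant array) and were lost without 4, 10, 11 and 11 of the arrays. The list count was 9 to 13 over the single arrays left out, and 8 when the 6 Congo Red arrays were fitted alone.

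**Figure D3:**
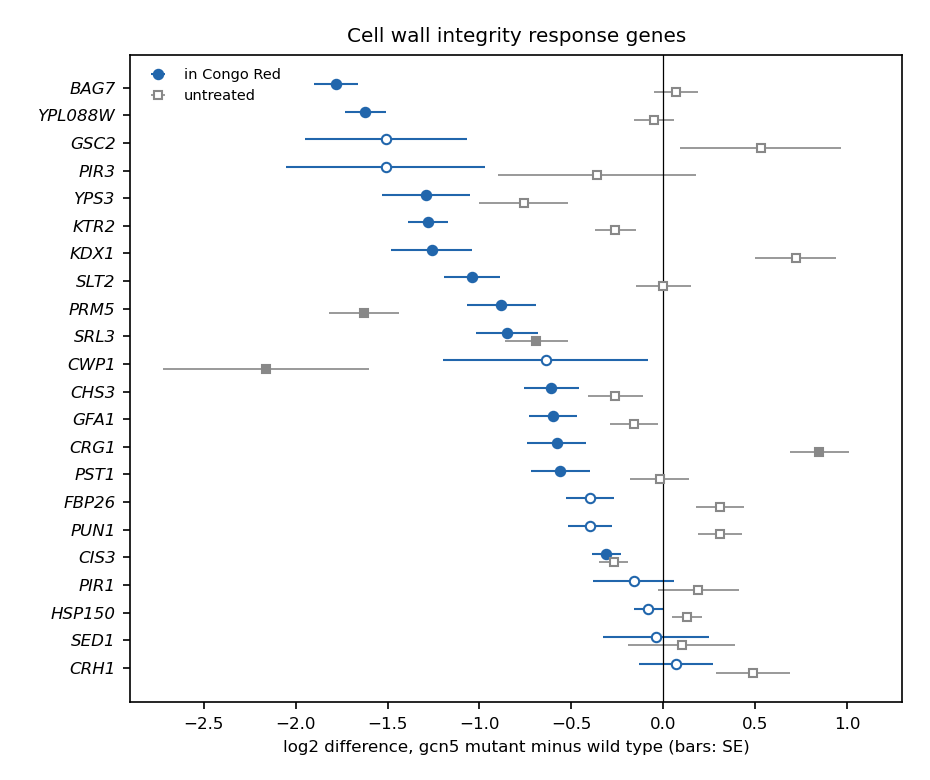
Difference between gcn5 mutant and wild type in log2 expression for 22 cell wall integrity response genes, in Congo Red (circles) and without dye (squares), with bars of 1 standard error and filled symbols where the adjusted p was under 0.05. In Congo Red 21 of the 22 lie left of zero, from BAG7 at -1.78 to CRH1 at 0.07, while without dye the values lie on both sides of zero, from CWP1 at -2.16 to CRG1 at 0.85, and 4 pass.

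Without the dye 3 of the 22 were lower (4.92% of all genes), 1 was higher (4.9%) and 18 did not pass. The median was -0.01, over members that differed in both directions. An unadjusted p under 0.05 was reached by 11 of them, 5 higher and 6 lower in the mutant (24.9% of all genes). With the replicate number as a block, which pairs the undyed strains, 4 were lower and 1 higher (19.2% of all genes passed). BAG7 was at 4.02 and 4.09 in the undyed strains, SLT2 at 9.85 in both and YPL088W at 8.09 and 8.03. The 3 lower were PRM5 (-1.63 ± 0.19; adjusted p = 0.000593), SRL3 (-0.69 ± 0.17; adjusted p = 0.03) and the mannoprotein gene CWP1 (-2.16 ± 0.56; adjusted p = 0.0338). CRG1, a methyltransferase gene, was higher in the undyed mutant by 0.85 ± 0.16 (adjusted p = 0.00866) and lower in Congo Red by 1.5-fold (adjusted p = 0.0416), and it was the 1 gene of 5345 (0.0187%) that passed in opposite directions. Its call in Congo Red was lost without 10 of the 12 single arrays (adjusted p up to 0.129, without the third wild type array).

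The test of the difference itself is the interaction of strain and dye. Without a block it passed for 3 genes (0.0561%), BAG7 (-1.85 ± 0.17; adjusted p = 0.00129), YPL088W (-1.56 ± 0.15; adjusted p = 0.0013) and the salt tolerance gene HAL1 (-1.46 ± 0.17; adjusted p = 0.00765), and 310 genes (5.8%) had an unadjusted p under 0.05. With each split culture as a block, since the portions of a culture deviated together, 69 genes passed (1.29%), of which 52 had a more negative and 17 a more positive strain difference in Congo Red. Among the 22 integrity response genes 9 passed with the block (40.9%), each more negative in Congo Red. They included KTR2 (-1.02 ± 0.12; adjusted p = 0.00328), KDX1 (-1.98 ± 0.25; adjusted p = 0.00477), SLT2 (-1.04 ± 0.16; adjusted p = 0.00982) and GSC2 (-2.04 ± 0.34; adjusted p = 0.0162).

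Some genes outside the list also had a more negative strain difference in Congo Red than without dye. HAL1 was at 9.06, 9.09 and 8.93 in wild type and at 7.50, 7.72 and 7.53 in the mutant in Congo Red (2.72-fold lower; adjusted p = 6.27e-05), and at 6.93 and 6.94 without dye. YMR315W, an oxidoreductase gene, was at 12.03 and 10.96 in Congo Red (adjusted p = 0.000996) and at 10.98 and 10.75 without. NCA3, of the SUN family of wall-associated proteins, was at 6.5 and 4.7 in Congo Red and at 5.78 and 4.99 without dye, and PRM10 at 9.48 and 7.96 and at 7.24 and 6.59. With the culture as a block their interactions passed (adjusted p = 0.00982 for YMR315W, 0.00611 for NCA3 and 0.0247 for PRM10). AFB1 differed by -2.73 without dye and -4.23 with it (interaction adjusted p = 0.0057 with the block). AFB1, NCA3 and PRM10 were already lower in the undyed mutant (adjusted p = 5.09e-05, 0.00715 and 0.0244). HAL1 and YMR315W did not pass there (adjusted p = 0.953 and 0.347).

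Of 31 genes that encode components of the integrity pathway, 6 were lower (6.4% of all genes), 1 higher (4.57%) and 24 did not pass. BAG7, KDX1 and SLT2 are also members of the response list. MSG5, a phosphatase gene for Slt2 and Fus3, was at 10.25, 9.98 and 10.33 in wild type and at 9.49, 9.65 and 9.06 in the mutant (-0.78 ± 0.15; adjusted p = 0.00868). The sensor gene MID2 (-0.50; adjusted p = 0.025), RDI1 (-0.38; adjusted p = 0.0244) and ZEO1 (0.40; adjusted p = 0.0457) lost their calls without 4, 5 and 9 single arrays (adjusted p up to 0.0832, 0.0805 and 0.14, without the third, first and second wild type array). RLM1 was at 9.26 ± 0.20 in wild type and 9.04 ± 0.11 in the mutant (SD, n = 3 each) and did not pass (adjusted p = 0.262). The MAP kinase kinase gene MKK1 (adjusted p = 0.146) and the phosphatase gene PTP2 (adjusted p = 0.121) did not pass either.

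Chitin synthesis genes were lower in 5 of 15 cases (6.4% of all genes) and higher in 1 (4.57%). CHS1, the repair chitin synthase gene, was at 10.74, 11.20 and 10.83 in wild type and at 10.12, 9.94 and 10.31 in the mutant, 1.75-fold lower (adjusted p = 0.00324). CHS6, needed to bring the main synthase Chs3 to the membrane, was 1.58-fold lower (-0.66 ± 0.11; adjusted p = 0.00342), and the Chs3 activator gene SKT5 1.36-fold lower (adjusted p = 0.0135). GFA1, at the head of the path to the chitin precursor, was described above. GNA1, a later enzyme of that path, was higher by 0.45 ± 0.12 (adjusted p = 0.0283), a call lost without 5 single arrays (up to 0.094, without the third wild type array).

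Glucan genes passed in 3 of 27 cases, a share near the 11.0% of all genes, and the list median was -0.04. The 3 were lower, and without the third mutant array in Congo Red 5 were. The exoglucanase gene EXG2 was at 10.19, 9.92 and 10.23 against 9.46, 9.58 and 9.10 (1.66-fold lower; adjusted p = 0.00531), and KNH1, a relative of the beta-1,6-glucan gene KRE9, was 1.99-fold lower (adjusted p = 0.0131). CRR1 was 2.07-fold lower (adjusted p = 0.0199), but not without 4 single arrays, arrays 2 or 3 of wild type or 1 or 2 of the mutant in Congo Red (up to 0.0709). EXG2 differed by 0.14 without dye, and its interaction passed with the culture block (adjusted p = 0.0105).

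Of 28 wall mannoprotein genes 7 were lower, 2 higher and 19 did not pass (11.0% of all genes passed). The lower count was 4 to 6 with any single array left out, and 4 without wild type array 1 or 2 or mutant array 1 in Congo Red, undyed wild type array 1 or 2 or undyed mutant array 2. The higher count was 1 to 4 in the same settings, 1 without wild type array 1 or 3 or mutant array 3 in Congo Red, 3 without mutant array 1 in Congo Red and 4 without undyed mutant array 3. YGP1, a secreted glycoprotein gene of nutrient limitation, was at 11.30, 11.70 and 10.46 in wild type and at 7.31, 7.70 and 7.22 in the mutant, 13.4-fold lower (-3.74 ± 0.36; adjusted p = 0.00016). TIR3, whose product is a wall protein of anaerobic growth, was at 8.37, 8.39 and 8.46 in wild type and at 10.19 ± 0.16 (mean and SD of 3 arrays) in the mutant, 3.44-fold higher (1.78 ± 0.12; adjusted p = 1.16e-05). Neither set of arrays overlapped. TIP1 was 2.34-fold lower (adjusted p = 0.00541) and SPI1, a gene of stationary phase, 1.82-fold lower (adjusted p = 0.00535). SPI1 differed by 0.29 without dye, and its interaction passed with the block (adjusted p = 0.00328). SPS100 (0.85; adjusted p = 0.0183) and the yapsin gene YPS1 (-0.90; adjusted p = 0.0484) were calls that single arrays removed, 3 for SPS100 (up to 0.0629, without the third wild type array) and 9 for YPS1 (up to 0.142, without the first mutant array).

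Of 26 mannosyltransferase genes 5 were lower (6.4% of all genes), but 3 and 2 without the first and the second wild type array in Congo Red. Apart from KTR2, KRE2, which extends the O-linked chains, was 1.3-fold lower (11.71, 11.72 and 11.77 against 11.45, 11.35 and 11.25; adjusted p = 0.0106). MNN1, the terminal alpha-1,3-mannosyltransferase gene, was 2.08-fold lower (adjusted p = 0.016), a call lost without the second wild type array (adjusted p = 0.0629). OCH1, which starts the outer chain (-0.54; adjusted p = 0.0183), and YUR1 (-0.56; adjusted p = 0.025) lost theirs without 3 and 4 arrays (adjusted p up to 0.075 and 0.0936, without the first and second wild type array).

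**Figure D4:**
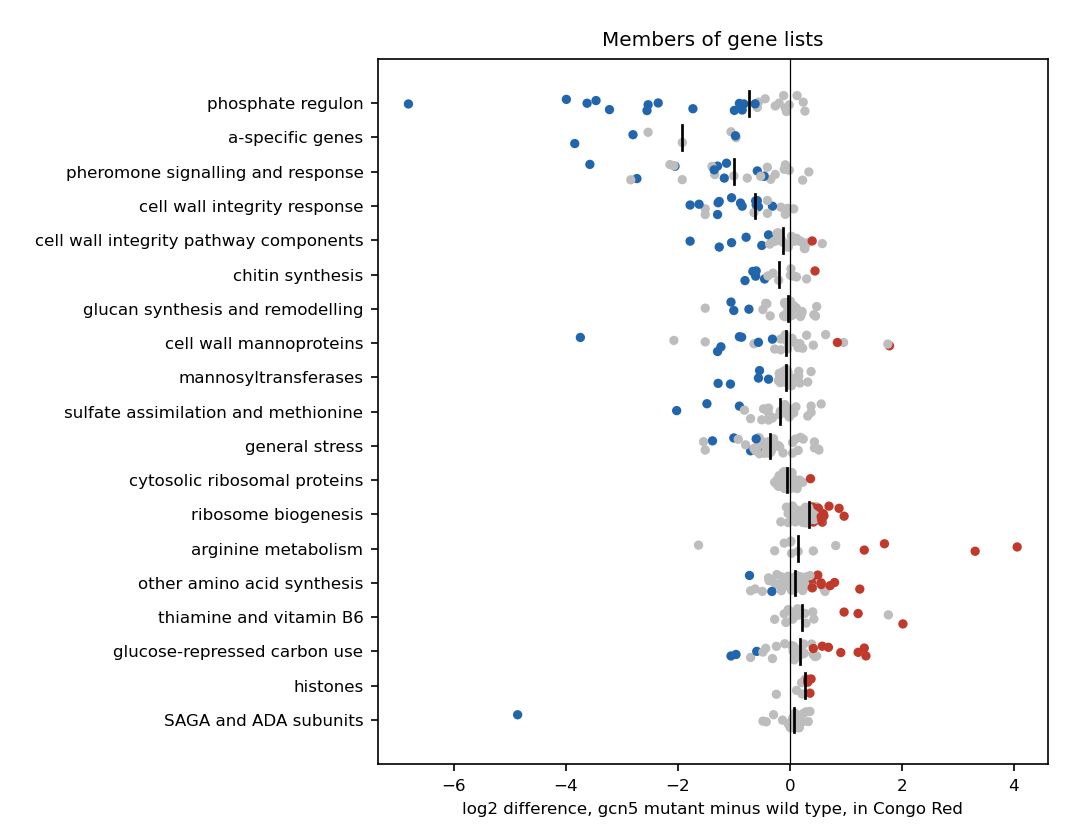
Log2 difference between gcn5 mutant and wild type in Congo Red for the tested members of 19 gene lists, each point a gene and each bar a list median, with passing genes red (higher) or blue (lower). The phosphate, mating and integrity response lists lie to the left (medians -0.72, -1.92, -1.0 and -0.63) and ribosome biogenesis to the right (median 0.34, 22 of 68 higher).

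Genes of ribosome biogenesis encode the factors that process ribosomal RNA and assemble the subunits. Of 68 measured, 22 were higher in the mutant in Congo Red (4.57% of all genes) and 46 did not pass, 63 had a positive difference, and the median was 0.34. SDA1, needed for export of the large subunit, was at 9.74, 9.76 and 9.97 in wild type and at 10.66, 10.72 and 10.73 in the mutant, 1.84-fold higher (0.88 ± 0.11; adjusted p = 0.000548). DIM1, the dimethylase of the small subunit RNA, was 1.63-fold higher (9.33, 9.35 and 9.45 against 10.09, 9.91 and 10.24; adjusted p = 0.00305). ENP2, NOP15 and RPF2 were 1.52-fold, 1.52-fold and 1.49-fold higher (adjusted p = 0.00621, 0.00565 and 0.00281), and IMP4 and BRX1 1.47-fold and 1.39-fold (adjusted p = 0.00329 and 0.00478). These shifts were small beside those of the phosphate genes, yet the arrays of the 2 strains did not overlap for 44 of the 68 (29.0% of all genes).

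Of the 22 calls 9 held without any single array. The count was 12 to 26 over the single arrays left out, with 12 and 13 without the first and the second wild type array in Congo Red 13 without the third mutant array, 14 without the first mutant array in Congo Red or the second undyed one, 10 without both Congo Red arrays numbered 3, and 7 with the 6 Congo Red arrays fitted alone. The largest difference of the list, FAF1 at 0.97 ± 0.25 (adjusted p = 0.0308), was lost without the first or second wild type array or the third mutant array (adjusted p up to 0.108). Without dye none of the 68 passed in limma, 6 had an unadjusted p under 0.05 (24.9% of all genes had), and the median was 0.01. With the replicate number as a block, which pairs the undyed strains, 3 were higher without dye (19.2% of all genes passed). SDA1 then stood at 10.71 and 10.93 and ENP2 at 10.57 and 10.65. With the culture as a block 5 of the 68 passed for the interaction (7.35%), each with a more positive difference in Congo Red, among them SDA1 (0.66 ± 0.10; adjusted p = 0.00898), ENP2 (0.54 ± 0.10; adjusted p = 0.0337) and BRX1 (0.40 ± 0.09; adjusted p = 0.0498).

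The ribosomal proteins themselves were counted apart from the assembly factors. Of 128 cytosolic ribosomal protein genes 1 passed (11.0% of all genes), RPS22B (0.37 ± 0.10; adjusted p = 0.0383, lost without 9 single arrays, up to 0.134 without the first wild type array), and the median was -0.05. Many of them are pairs of near-identical copies whose probe sets can share signal.

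Arginine synthesis genes held the largest rises. Arginine represses them through the ArgR complex and Gcn4 activates them. ARG1, which encodes argininosuccinate synthetase, was at 8.42, 8.28 and 6.54 in wild type and at 11.86, 11.59 and 11.96 in the mutant, 16.6-fold higher (4.06 ± 0.45; adjusted p = 0.000445). ARG3, the gene of ornithine carbamoyltransferase, was at 5.85, 5.93 and 5.22 against 8.88, 8.64 and 9.42, 9.93-fold higher (3.31 ± 0.36; adjusted p = 0.000379). CPA1, a carbamoyl phosphate synthetase subunit gene, was 3.23-fold higher (1.69 ± 0.33; adjusted p = 0.0087), as was YOR302W, the short reading frame in its leader, at 3.80-fold (adjusted p = 0.0113). ARG7 was 2.52-fold higher (9.06, 9.08 and 8.59 against 10.35, 10.18 and 10.19; adjusted p = 0.000752).

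Of 13 arginine genes 4 were higher (4.57% of all genes) and 9 did not pass, and the 4 calls held without any single array. CAR2, of arginine breakdown, was at 11.04, 11.14 and 10.86 in wild type and at 9.94, 10.11 and 8.12 in the mutant (adjusted p = 0.0882). Among 56 genes of other amino acid pathways 9 were higher (4.57% of all genes), 2 lower (6.4%) and 45 did not pass. The homocitrate synthase genes of lysine synthesis, LYS20 and LYS21, were 2.38-fold and 1.74-fold higher (adjusted p = 0.00437 and 0.00273), and the asparagine synthetase gene ASN1 1.47-fold (adjusted p = 0.00441). GCN4, the activator of amino acid synthesis, was at 12.87, 12.76 and 12.85 against 13.22, 13.23 and 13.23 (1.32-fold higher; adjusted p = 0.0123), though its control is known to be mainly at translation. BAT2, a branched-chain aminotransferase gene, was 1.64-fold lower (adjusted p = 0.00936). The count of higher genes in that list was 4 without the third wild type array in Congo Red and 5 without the second mutant array.

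Of 27 genes of sulfate assimilation and methionine synthesis 3 passed, a share near the 11.0% of all genes. MET2, for homoserine acetyltransferase, was at 6.98, 6.93 and 6.67 in wild type and at 4.76, 4.92 and 4.84 in the mutant, 4.05-fold lower (-2.02 ± 0.11; adjusted p = 1.92e-06). MET14 and MET3, which activate sulfate, were 2.78-fold and 1.86-fold lower (adjusted p = 0.000134 and 0.000573). The other 24 did not pass. MET3 differed by -0.15 without dye and its interaction passed with the block (adjusted p = 0.0129). Without the third mutant array in Congo Red 6 were lower. Both strains carry the background's deletion of MET17.

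Of 16 thiamine and vitamin B6 genes 3 were higher (4.57% of all genes). SNZ1, of vitamin B6 synthesis, was at 8.34, 8.28 and 7.64 against 9.98, 9.90 and 10.44, 4.04-fold higher (2.02 ± 0.24; adjusted p = 0.000548), while its partner SNO1 just missed (1.76 ± 0.51; adjusted p = 0.0505). The thiamine regulator gene THI2 was 1.95-fold higher (adjusted p = 0.00456). THI13, of a family of near-identical genes, was 2.32-fold higher (adjusted p = 0.0284), a call lost without 5 single Congo Red arrays (up to 0.0889, without the third mutant array).

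Genes that glucose represses were higher in 7 of 32 cases (4.57% of all genes) and lower in 3 (6.4%), in cells grown on glucose. CAT8, the activator of gluconeogenic genes, was at 5.70, 6.26 and 5.73 in wild type and at 6.99, 7.41 and 7.28 in the mutant, 2.52-fold higher (adjusted p = 0.000548). The carnitine acetyltransferase genes YAT1 and YAT2 were 2.56-fold and 1.61-fold higher (adjusted p = 0.00258 and 0.00306), and the gluconeogenic PCK1 1.88-fold (adjusted p = 0.00606). SIP4 rose from below or near log2 4 on the wild type arrays (4.33, 3.94 and 3.5) to 5.06, 5.36 and 5.01 (adjusted p = 0.00372). REG2, a phosphatase subunit gene of glucose control, was 2.07-fold lower (adjusted p = 0.00154). The lower count was 1 without the first or second wild type array or the first mutant array in Congo Red. Without dye 9 of the 32 were higher (4.9% of all genes) and 2 lower (4.92%). With the replicate number as a block 14 were higher and 3 lower without dye (19.2% of all genes passed).

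In other parts of metabolism single genes stood out. ERG9, the squalene synthase gene at the entry to sterol synthesis, was at 11.27, 11.32 and 11.33 in wild type and at 9.61, 9.83 and 10.09 in the mutant, 2.75-fold lower (-1.46 ± 0.13; adjusted p = 0.00011). ERG1 was 1.42-fold lower (adjusted p = 0.0122). Of 26 ergosterol genes 3 were lower (6.4% of all genes) and 1 higher (4.57%). Of 40 general stress genes 5 were lower (6.4% of all genes), among them the glycerol synthesis genes GPD1 (2.60-fold lower; adjusted p = 0.0013) and GPP2 (2.00-fold lower; adjusted p = 0.000548). The general stress count was 2 without wild type array 1 or 2 or mutant array 1 in Congo Red, 3 without undyed wild type array 1 or undyed mutant array 2, 9 without undyed wild type array 3, and 21 without the 4 arrays numbered 3. The median of the list was -0.36, and it was -0.04 without dye. None of the 40 was higher in Congo Red, so the share that passed was near the 11.0% of all genes. In the undyed portions 4 were higher (4.9% of all genes), 1 was lower (4.92%) and 35 did not pass. With the culture as a block 1 of the 40 passed for the interaction (2.5%, beside 1.29% of all genes). Of 34 metal uptake genes 1 passed (11.0% of all genes), the copper-regulated reductase gene FRE7 (8.13, 9.31 and 8.60 against 6.16, 6.88 and 6.40; 4.59-fold lower; adjusted p = 0.00358). Among 16 calcium genes 3 were lower (6.4% of all genes) and 1 higher (4.57%). CMK2 (1.62-fold; adjusted p = 0.0061) and the calcineurin regulator gene RCN1 (1.47-fold; adjusted p = 0.0127) were among the lower.

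Of 19 genes of the G1 to S transition 3 were lower (6.4% of all genes), and each held without any single array (5 were lower without the second mutant array in Congo Red). SVS1 was at 12.32, 12.34 and 12.33 against 11.27, 11.41 and 11.29 (2.01-fold; adjusted p = 0.00167), HO was 2.06-fold lower (adjusted p = 0.00341) and the cyclin gene PCL2 1.78-fold lower (adjusted p = 0.00565). RTC3 was at 10.30, 10.38 and 10.37 in wild type and at 7.65, 7.86 and 8.01 in the mutant, 5.68-fold lower (adjusted p = 0.000752). It was also lower without dye, by -1.25 (adjusted p = 0.0334). The interaction of RTC3 did not pass with the culture block (-1.26 ± 0.36; adjusted p = 0.115). The vacuolar aminopeptidase gene APE1 was at 8.69, 8.93 and 8.57 against 9.85, 10.17 and 11.26, 3.24-fold higher (adjusted p = 0.00509), and at 10.39 and 10.71 without dye. Its interaction passed with the block (1.38 ± 0.26; adjusted p = 0.0312).

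The remaining large rises were of genes with varied roles. The permease gene SEO1 was 3.84-fold higher (adjusted p = 0.0135, but 0.0594 without the first wild type array), ECM13 3.72-fold (adjusted p = 0.00647), SNO4, of a family of near-identical chaperone genes, 3.33-fold (adjusted p = 0.00936) and the sporulation glucoamylase gene SGA1 2.87-fold (adjusted p = 0.00151). The transporter gene PDR18 (3.53, 4.13 and 4.14 against 5.18, 5.53 and 5.74; adjusted p = 0.00203) began near the floor. YLL066W-B, a short reading frame, was 3.39-fold higher (adjusted p = 0.000548). ICS3 (3.16-fold; adjusted p = 0.0494) and the lactate dehydrogenase gene CYB2 (2.70-fold; adjusted p = 0.0491) lost their calls without 10 and 8 single arrays (up to 0.157 and 0.147, without the second wild type array and the third, respectively).

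The complexes of Gcn5 were a list as well. Of 23 SAGA and ADA subunit genes GCN5 itself passed and 22 did not (11.0% of all genes passed). ADA2, the adaptor that binds Gcn5, was at 8.35 ± 0.07 in wild type and 8.07 ± 0.26 in the mutant (SD, n = 3 each; adjusted p = 0.173), and SGF29, whose product reads methylated histone H3, at 7.54 ± 0.39 and 7.51 ± 0.31 (adjusted p = 0.954). SGF73, of the deubiquitinating module, was nearest to passing (0.36 ± 0.11; adjusted p = 0.0561). TAF9 (-0.42; adjusted p = 0.0695) and UBP8 (-0.48; adjusted p = 0.077) came next. An unadjusted p under 0.05 was reached by 7 of the 23 (26.1% of all genes). In the undyed portions SGF73 was higher (0.39; adjusted p = 0.044), the 1 such call (4.9% of all genes). The 2 lower there (4.92%) were GCN5 and UBP8 (-0.76; adjusted p = 0.0126). None of 27 genes of other acetyltransferases, deacetylases and SWI/SNF passed in limma, where 8 had an unadjusted p under 0.05, as did 26.1% of all genes. Histone genes were higher in 4 of 9 cases (4.57% of all genes), HHT1, HHT2, HTA1 and HTZ1, by 0.32 to 0.38. The count was 0 to 3 with any single array left out, 0 without the first wild type array in Congo Red, and each of these calls was lost without at least 3 single arrays (adjusted p up to 0.153, for HHT1 without the second wild type array).

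The strain difference was then set beside that of the undyed portions, which were measured on other arrays but came from the same cultures. Without dye 525 genes passed (9.82%), 262 higher (4.9%) and 263 lower (4.92%), and 1024 (19.2%) passed with the replicate number as a block, since same-numbered arrays deviated together there. At least 2-fold apart were 115 (2.15%), 49 higher (0.917%) and 66 lower (1.23%). The count was 305 or 301 without the first or second undyed wild type array, and 349, 284 or 265 without undyed mutant array 1, 2 or 3. The overlap was counted from the 525, without the block, and not from the 1024. A gene outside it may thus still differ without dye. Of the 586 genes that passed in Congo Red 305 (52.0%) passed without dye as well, which is 58.1% of the 525 and 5.71% of all genes. Of these 304 (5.69%) had the same direction, 120 higher (2.25%) and 184 lower (3.44%). At least 2-fold in both and in the same direction were 73 genes (1.37%).

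Some genes passed with a large difference in the same direction in both settings. ARG1 differed by 4.06 in Congo Red and 3.61 without it, ARG3 by 3.31 and 3.60 and SNZ1 by 2.02 and 1.99. On the lower side PHO11 differed by -3.62 and -4.10, MFA1 by -3.84 and -3.60, SPL2 by -3.46 and -3.96 and YGP1 by -3.74 and -3.39. With the culture as a block none of the 26 phosphate, 27 pheromone and 13 arginine genes passed for the interaction. The share of all genes that passed it was 1.29%, low enough that lists of this size can hold none. A test that is not passed does not show that the differences are equal, and for PHO84 the standard error of the interaction was 0.88 with the block.

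**Figure D5:**
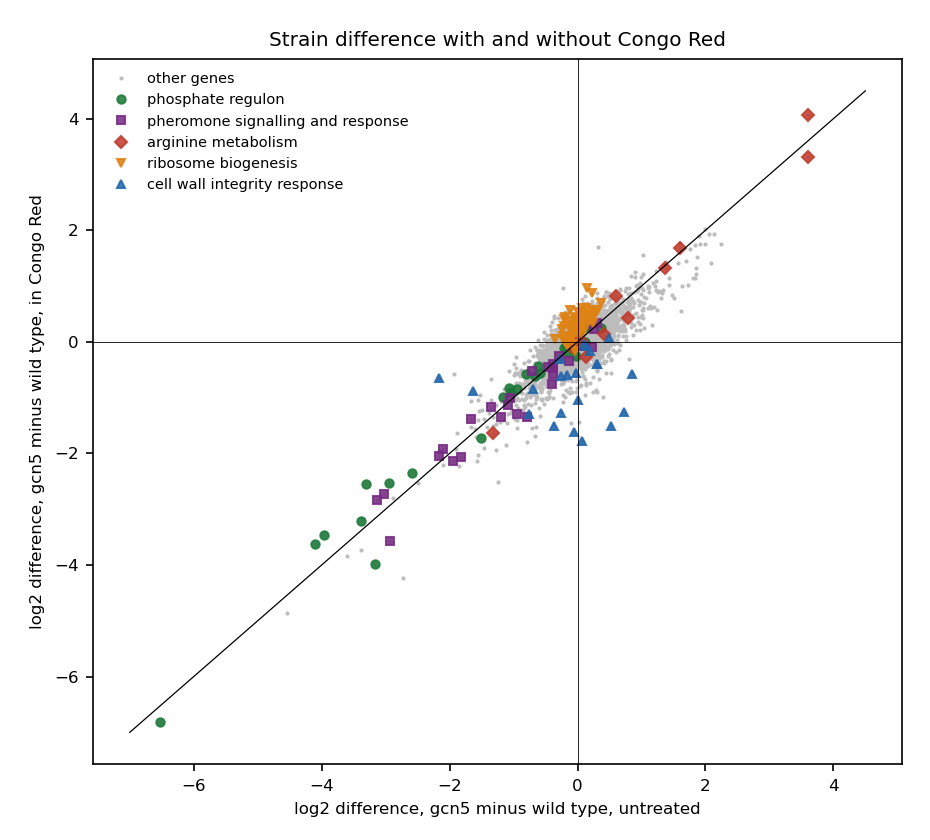
Log2 difference between gcn5 mutant and wild type in Congo Red (vertical) against the same difference without dye (horizontal) for 5345 genes, with 5 gene lists coloured and the line of equality. Phosphate, pheromone and arginine genes lie along the line, ribosome biogenesis genes lie above zero on the vertical axis and near zero on the horizontal, and integrity response genes lie mostly below the line.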

How the data were processed

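The authors deposited log2 expression values, made with GCRMA per the submitters' processing notes (version not given in the sources used). The method subtracts background, forces similar distributions on all arrays and summarizes each probe set, so a shift of all transcripts together would not be seen. Groups came from the titles. The platform annotation named 1 gene for 5498 of 5716 probe sets and none for 218, and 12 symbols were updated through RefSeq identifiers. For 47 genes with several probe sets the brightest was kept, which left 5449 genes. Tested were 5345 with log2 over 4 on at least 3 of 12 arrays. Values under 4 were taken as 4 for bounds. No coordinates are given because no build is named.

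Tests used limma 3.58.1 in R 4.3.3 (4 group means over 12 arrays, 8 residual degrees of freedom, eBayes, Benjamini-Hochberg over 5345 genes, threshold 0.05), and the fit was tested on simulated data. Alternatives changed filters, scaling, floor, probe choice, variance prior, array weights and blocks, and left out arrays. Genes named were chosen as GCN5, its neighbours, the marker genes, the 15 largest rises and falls whose arrays did not overlap, from the passing members of 35 lists and the 4 of each with the smallest p, the 10 smallest interaction p-values among 2-fold genes, and the 5 largest rises and falls shared with the undyed strains. Other members named (AGA2, ASG7, MFA2, STE3, STE4, SAG1, PHO2, PHO4, PHO80, PHO85, CAR2, CRH1, CWP1, HSP150, PIR1, PIR3, SED1, RLM1, MKK1, PTP2, ADA2 and SGF29) were chosen after their values were seen, to show the range of a list. Not all of the 35 lists are described above. Those left out include purine synthesis, glycolysis and seripauperins, of which no gene passed in Congo Red (11.0% of all genes did). Amino acid and nitrogen uptake was left out too, with 3 of 34 higher (4.57% of all genes) and 4 lower (6.4%). The comparison, lists and rule were chosen with earlier results of these data known. Same-numbered arrays of the strains in Congo Red had deviations correlated at 0.33, -0.08 and 0.11, so the number does not pair them. It pairs the undyed strains (0.53, 0.39 and 0.44) and, as the labels describe split cultures, the portions of wild type (0.53, 0.74 and 0.67) and mutant (0.84, 0.57 and 0.79).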

Additional observations from a re-analysis of the deposited data

Results flagged for a closer look

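For 3 genes the strain difference itself differed between the dyed and undyed portions, by limma's interaction test without a block, adjusted over all genes. That fit leaves out the pairing of the portions of a culture. With each split culture as a block 69 genes passed (1.29%), these 3 among them. The values below are from the fit without a block. The strain difference in Congo Red minus that without dye was -1.85 log2 units for BAG7 (adjusted p = 0.00129), with strain differences of -1.78 in Congo Red and 0.07 without dye. For YPL088W the value was -1.56 (adjusted p = 0.0013), from -1.62 and -0.05. For HAL1 it was -1.46 (adjusted p = 0.00765), from -1.44 and 0.02.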

How the results depend on the processing

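Main counts were 586 genes in Congo Red, 525 undyed and 3 for the interaction. In Congo Red the count was 907 with array weights, 1048 with the number as replicate block on 12 arrays, 316 with the 6 Congo Red arrays alone and 252 with these and the replicate block, and 350 to 616 leaving out single arrays. The 1048 include all 586. Undyed it was 1177 with array weights, 1024 with the replicate block and 265 to 615 leaving out single arrays. The interaction count was 6 with trend and robust priors, 16 with array weights, 7 with the number block, 69 with the culture block, 13 without the 4 arrays numbered 3, 7 without both Congo Red arrays numbered 3 (an alternative chosen after seeing the data) and 3 to 5 leaving out single arrays. The cause was not tested. Counts at 2-fold (124 and 115) stayed within 1.5 times, at 107 to 147 and 83 to 127 leaving out single arrays. The naming rule chose 174 passing genes, not all of which are described above. Of these none reversed, and 88 to 174 stayed past the threshold, fewest with the 6 Congo Red arrays and the number block. The 3 arrays a group limit the precision, and values under log2 4 give bounds.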
